A study of Mus musculus with 18 samples.

Results

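The transcripts that prepare and carry out DNA replication were followed in mouse blood after irradiation. The set holds 29 genes, chosen by name for their role at the step from G1 into S phase, with earlier results of these data known. Its members are the array probes, controls left out, that carry one of the 29 gene names. By the name printed in the scanner files 28 of the genes were found, and Gins2, which the files list under an older symbol, was found through the accession of its probe. In all 43 of 41174 probes belonged to the set. A probe is called detected on an array where the scanner flagged it as well above background. Of the 29 genes, 28 had a probe detected on 5 arrays or more and are called measured, among 13621 genes tested. Ccne2, for cyclin E2, had 2 probes detected on 0 arrays and was not tested. Of the 28, 21 were detected on all 18 arrays and 7 (Cdc6, Dtl, E2f1, Gins1, Gins2, Pola1 and Pole) on fewer.

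Blood was taken by cardiac puncture from male mice of the inbred strain C57BL/6N, 8 to 12 weeks of age, 6 hours after a sham treatment (0 Gy, 7 mice) or gamma rays from a cesium source (2 Gy, 5 mice, and 8 Gy, 6 mice). The mice carried no transgene or induced mutation that the labels name. Each mouse gave 1 array of a 1-colour Agilent design, after globin RNA had been removed from the total RNA. The RNA kit was RiboPure for 5, 4 and 6 mice at 0, 2 and 8 Gy and PAXgene for 2, 1 and 0, and the kit was a term of the limma model unless another setting is named. Levels are given as the log2 signal minus the 75th percentile of the array, so a value of 0 is the signal at that percentile, and levels of different probes are not compared with each other. Because whole blood is a mixture, fewer cells of a type and less RNA per cell cannot be told apart in any value below.

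Before S phase, the factors Cdc6 and Cdt1 load the ring of Mcm2 to Mcm7 onto replication origins, and the ring becomes the replicative helicase once GINS and Cdc45 join it. Most of these genes are transcribed by E2F factors, which the retinoblastoma protein holds back until cyclin-dependent kinases phosphorylate it. The inhibitor p21, made from Cdkn1a under control of p53, blocks those kinases after DNA damage. Most nucleated cells of normal blood do not divide, so low levels of these transcripts there can come from a few cycling cells or from resting cells that keep some of them.

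The promoters of the members were read for letters that E2F factors are known to bind, because E2F is the common regulator of this pathway. RefSeq promoter windows on the build GRCm38.p6, which run from 250 bases before the start to 50 after it, were matched by symbol for 24 of the 29 members, not for Ccne2, Pole, Mcm4, Gins1 and Gins2. The E2F-like letters searched were TTTCCCGC, TTTCGCGC, TTTGCCGC and TTTGGCGC on both strands. They occurred in 10 of 24 members (41.7%) and in 2.61% of 27025 genes with a window. The 5 windows below belong to Cdt1, Mcm5 and Mcm3, the members called at 8 Gy in the results, and to Dtl and Lig1, with the matched letters in capitals, written 5′ to 3′ on the strand of the gene.
Cdt1: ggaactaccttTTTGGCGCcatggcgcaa
Mcm5: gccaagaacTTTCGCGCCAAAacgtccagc
Mcm3: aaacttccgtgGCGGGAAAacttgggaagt
Dtl: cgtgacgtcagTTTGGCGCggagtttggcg
Lig1: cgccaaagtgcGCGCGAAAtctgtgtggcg
The Cdt1 window is chr8:122568036-122568064 (+ strand), the Mcm5 window chr8:75109347-75109376 (+), the Mcm3 window chr1:20820275-20820304 (-), the Dtl window chr1:191575534-191575563 (-) and the Lig1 window chr7:13278841-13278870 (+). In Mcm5 the matches TTTCGCGC and GCGCCAAA overlap and read as 1 run. Mcm3 holds another match further into its transcribed part, and Mcm6, Mcm7, Pola1, Cdc6 and Uhrf1 hold matches as well.

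For Mcm5 the 250 bases before the start, chr8:75109259-75109508 (+ strand), show how the letters lie among others, with the E2F-like run and the CCAAT letters in capitals.
Mcm5 promoter: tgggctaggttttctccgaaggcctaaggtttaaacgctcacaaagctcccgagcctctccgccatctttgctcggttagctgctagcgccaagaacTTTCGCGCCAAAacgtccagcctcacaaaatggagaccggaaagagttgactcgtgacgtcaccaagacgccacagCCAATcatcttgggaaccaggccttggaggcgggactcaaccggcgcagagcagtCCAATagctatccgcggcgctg
The E2F-like run lies at positions -153 to -142, counted from the start, and 2 CCAAT matches follow it. CCAAT, on both strands, occurred in 14 of 24 members (58.3%) and 41.1% of all genes. The letters TTTGAA or TTCGAA, known as the cell cycle homology region, occurred on either strand in 3 of 24 members (12.5%) and 21.7% of all genes.

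Some arrays and cell markers moved together with dose, and these values belong beside every result that follows. The 75th percentile of the signal was 137.8 to 424.8 intensity units in 0 Gy mice, 46.4 to 186.1 in 2 Gy mice and 58.4 to 231.8 in 8 Gy mice, so the dimmest arrays came from irradiated mice while the ranges overlapped. Of 20 B cell markers 18 fell at 8 Gy, with a median log2 fold change of -3.09, and their mean level relative to the 0 Gy mean was -1.78 to 0.80 in 0 Gy mice, -3.60 to -1.66 in 2 Gy mice and -3.81 to -0.98 in 8 Gy mice. Of 15 neutrophil markers 13 rose at 8 Gy, with a mean level of -0.71 to 1.77 in 0 Gy mice, 0.29 to 2.74 in 2 Gy mice and 1.32 to 3.02 in 8 Gy mice. Of 18 T cell markers 2 fell, and of 10 NK cell, 9 neutrophil precursor, 9 monocyte, 18 erythroid, 11 platelet and 6 plasma cell markers measured, 0, 2, 1, 2, 4 and 0 rose and 0 fell. All 18 erythroid and all 11 platelet markers had log2 fold changes above 0 at 8 Gy, with medians of 0.83 and 1.04. Over all genes tested, 7.57% were called higher and 4.38% lower at 8 Gy. Without the array labelled 0 Gy replicate 5, 5 erythroid and all 11 platelet markers rose, beside 15.3% of all genes called higher. Of the 20 B cell markers 19 were below 0 at 8 Gy, and the highest had 1.14. The array labelled 0 Gy replicate 5 had a mean p53 target level of 1.38, against -0.54 to -0.02 on the other 0 Gy arrays, and a B cell level of -1.78, against -0.28 to 0.80. Its label was kept, and calls are also given without it. The arrays labelled 0 Gy replicate 4 and 2 Gy replicate 3 had the lowest Mcm4, Slbp and Uhrf1 levels of their groups, so calls are also given without these. The part of any of these in the results was not tested beyond the values given.

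At 8 Gy the licensing factor Cdt1 and the helicase subunits Mcm5 and Mcm3 were lower in blood than at 0 Gy, each by close to 0.8 on the log2 scale. No member rose past the threshold, an adjusted p of 0.05 in limma over all genes tested. The 3 lower calls among 28 members stand beside 4.38% of all genes tested called lower, and the 0 higher calls beside 7.57% called higher. Of the 28 log2 fold changes, 23 were below 0 and their median was -0.39, while the median over all genes was 0.08. Among those below 0 are Mcm10, Cdc6, Dtl and E2f1, whose signs are not settled by the values given below. Of the 6 mice at 8 Gy, 0 lay below the 0 Gy median for Mcm10 and 1 for Cdc6. The count below 0 was 24 with quantile normalization, 24 with the deposited values and 19 with normexp, a background correction, where the median of the members was -0.36. An unadjusted p under 0.05 was reached by 10 members, against 33.1% of all genes. Called in either direction were 3 members and 12% of all genes, so the number of calls is no result about the members. Quantile normalization turned the split of all genes, 1031 called higher and 597 lower, into 521 higher and 622 lower and moved their median to -0.02, while the members had a median of -0.39 again. Under normexp, which moved the all-gene split to 930 higher and 1136 lower, Mcm6 and Mcm7 fell as well (adjusted p = 0.0403 and 0.0350).

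**Figure D1:**
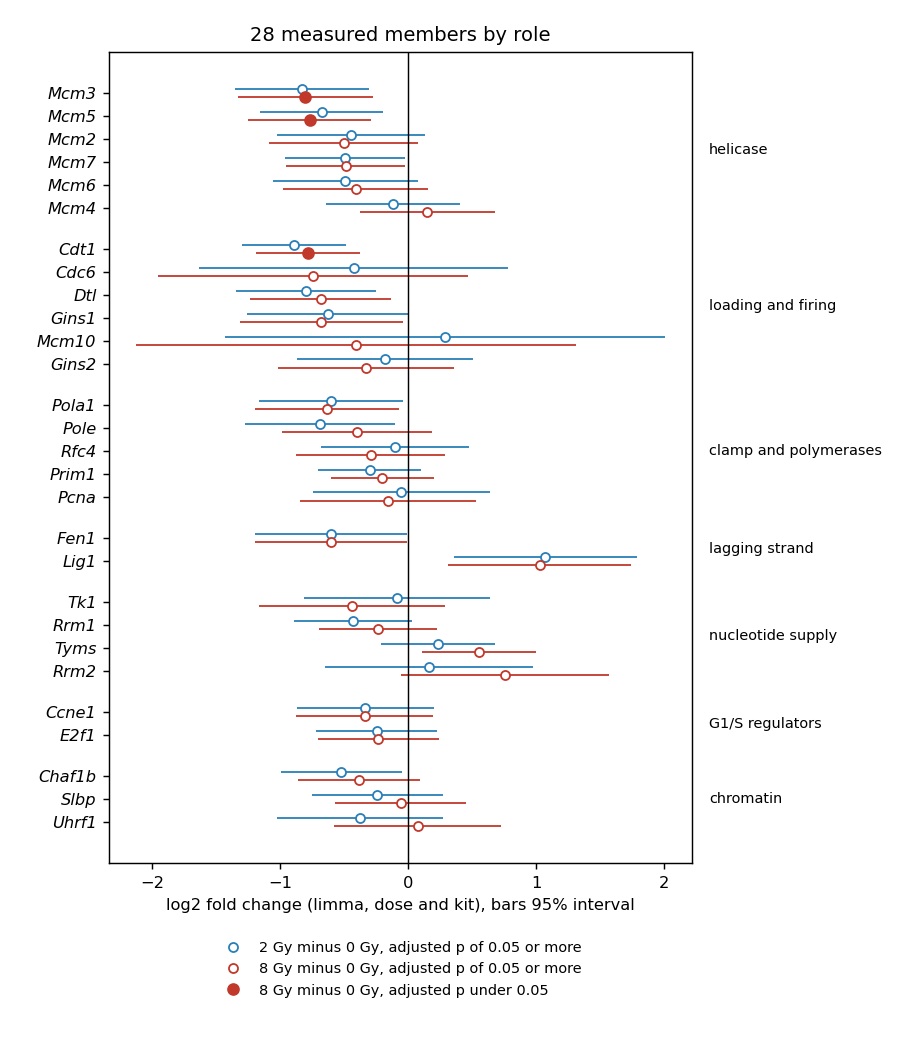
Log2 fold changes of the 28 measured members (x axis, limma with dose and kit, bars 95% intervals) at 2 Gy (blue) and 8 Gy (red) against 0 Gy, ordered by role. Filled points passed an adjusted p of 0.05: Mcm3, Mcm5 and Cdt1 at 8 Gy; Lig1, Tyms and Rrm2 lie above 0 at both doses.

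The loading and firing factors hold the member with the smallest p. Cdt1, which brings the helicase ring to the origin and is destroyed once S phase starts, had a lowest level of 3.18, a median of 3.46 and a highest of 4.23 in 0 Gy mice. It had 2.65, 2.69, 2.55, 2.46 and 2.88 in the 5 mice at 2 Gy. In 8 Gy mice it lay between 2.38 and 3.10 with a median of 2.74. All 5 mice at 2 Gy and all 6 at 8 Gy lay below the lowest of the 7 mice at 0 Gy, so the groups did not overlap with 0 Gy at either dose. That happened in the lower direction for 0.83% of all genes tested at 8 Gy and for 0.976% at 2 Gy. Cdt1 fell by 0.79 ± 0.19 (SE) on the log2 scale at 8 Gy, to 0.580 of the 0 Gy level (adjusted p = 0.0234, limma), with means of 2.72 ± 0.26 (SD, n = 6) at 8 Gy and 3.56 ± 0.37 (SD, n = 7) at 0 Gy. At 2 Gy the log2 fold change was -0.89 ± 0.19 (adjusted p = 0.0636), which did not pass. Its probe lies on chromosome 8 from 121214998 to 121215057 in the build of the files, mm7.

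Among the other loading and firing factors none passed. Dtl, the substrate receptor of the ubiquitin ligase that marks Cdt1 for destruction on chromatin, had a log2 fold change of -0.68 ± 0.26 at 8 Gy (adjusted p = 0.0833), but its probe was detected in 1 of the 6 mice given 8 Gy and 4 of the 7 given 0 Gy, and normexp background correction gave 0.60 (adjusted p = 0.117), so its direction is unsettled. Gins1, a GINS subunit, had -0.68 ± 0.30 (adjusted p = 0.128), with -0.04 under normexp. Its dimmer probe had -1.28, but was detected in 5 mice at 0 Gy and 0 at 8 Gy, so that value rests on signals near background. Gins2, another subunit, had -0.33 ± 0.33. Cdc6, an ATPase that loads the ring with Cdt1, had -0.74 ± 0.57 and was detected in 1 mouse given 8 Gy and 4 given 0 Gy. Its other probe, which did not pass the filter, had 0.66, and normexp gave the probe used 0.58. Mcm10, which helps to activate the helicase, had -0.41 ± 0.81, with a wide error. The arrays labelled 0 Gy replicate 4 and 2 Gy replicate 3 had levels of 3.13 and 4.64, while the other 16 arrays lay between -0.90 and 0.36.

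Of the 6 subunits of the helicase ring, Mcm5 and Mcm3 fell at 8 Gy and the others did not pass. Mcm5 had levels of 1.04 to 1.96 (median 1.74) in 0 Gy mice, 1.07, 1.27, 0.49, 0.29 and 1.38 in the 2 Gy mice, and 0.21 to 1.18 (median 0.70) in 8 Gy mice. The groups overlapped through the array labelled 0 Gy replicate 4, the lowest of the 0 Gy arrays at 1.04. Mcm5 fell by 0.77 ± 0.23 at 8 Gy (adjusted p = 0.0420), with means of 0.71 ± 0.42 (SD, n = 6) at 8 Gy and 1.62 ± 0.32 (SD, n = 7) at 0 Gy. At 2 Gy it had -0.68 ± 0.23 (adjusted p = 0.148). Its probe lies on chromosome 8 from 73669372 to 73669432 (mm7).

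Mcm3 had levels of 1.66 to 3.09 (median 2.77) in 0 Gy mice, 2.31, 2.49, 1.90, 1.41 and 0.93 in the 2 Gy mice, and 1.29 to 2.63 (median 1.96) in 8 Gy mice. The lowest 0 Gy values, 1.66 and 2.13, were those of the PAXgene arrays, and the lowest 2 Gy value, 0.93, was that of the PAXgene array there. Mcm3 fell by 0.80 ± 0.25 at 8 Gy (adjusted p = 0.0459), with means of 2.03 ± 0.48 (SD, n = 6) at 8 Gy and 2.55 ± 0.54 (SD, n = 7) at 0 Gy. Without the kit as a term it had -0.52 (adjusted p = 0.241), and at 2 Gy -0.83 ± 0.25 (adjusted p = 0.120). A second Mcm3 probe had -0.71 at 8 Gy and -0.83 at 2 Gy. The probe used lies on chromosome 1 from 20998636 to 20998695 (mm7).

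Mcm2, Mcm7 and Mcm6 had log2 fold changes of -0.51 ± 0.27, -0.49 ± 0.22 and -0.41 ± 0.27 at 8 Gy, with adjusted p from 0.133 to 0.297. Mcm4 had 0.15 ± 0.25 (adjusted p = 0.709), with a 95% interval from -0.37 to 0.67, and its sign turned with quantile normalization (-0.07), the authors' deposited values (-0.07) and normexp (-0.38). The 6 subunits form 1 ring in equal numbers, and 5 of their 6 fold changes were below 0. Whether Mcm4 differs from the other subunits was not tested.

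**Figure D2:**
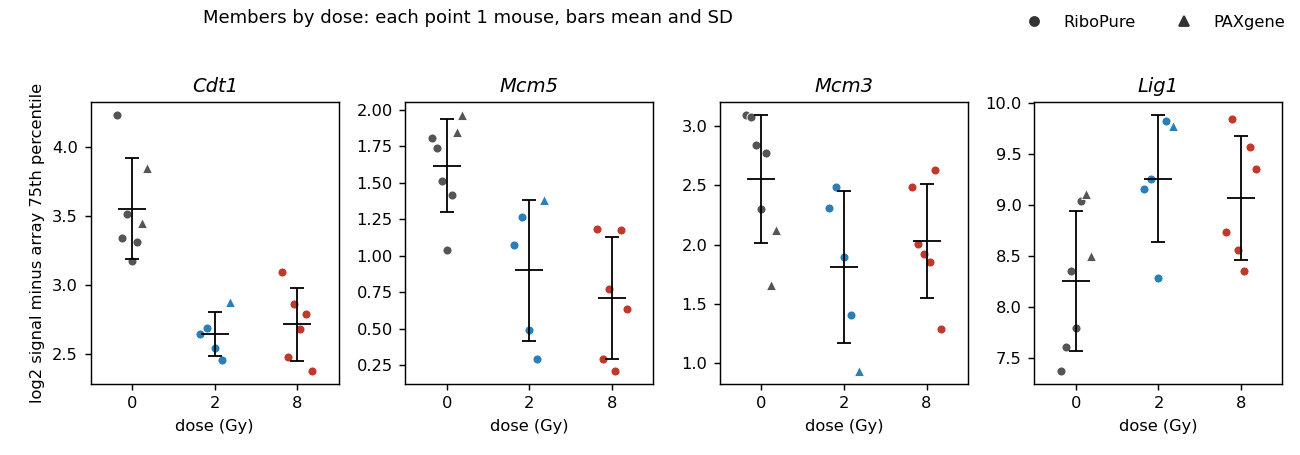
Levels of Cdt1, Mcm5, Mcm3 and Lig1 (y axis, log2 signal minus the 75th percentile of the array) by dose in Gy (x axis), 1 point per mouse, circles RiboPure, triangles PAXgene, bars mean and SD. Cdt1 lies below the 0 Gy range (3.18 to 4.23) in all irradiated mice, while the other genes overlap.

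The calls of these 3 genes depended on single arrays and on the batch terms of the model. Cdt1, Mcm5 and Mcm3 passed at 8 Gy under 23, 13 and 10 of 32 alternative settings, and their log2 fold changes stayed between -1.25 and -0.52 in all of them. They kept their calls without the array labelled 0 Gy replicate 5 (adjusted p = 0.0122, 0.0329 and 0.0394) and without 0 Gy replicate 4 and 2 Gy replicate 3 (0.0236, 0.0298 and 0.0333). None passed with the slide as a fixed block, at -0.97, -0.76 and -0.59 (adjusted p from 0.498 to 0.599), nor with the brightness of the array as a covariate, at -0.59 for each (adjusted p from 0.265 to 0.369). No gene of the 13621 passed in these limma fits, with 1174 and 1843 at an unadjusted p under 0.05. None of the 3 passed without 0 Gy replicate 1, 8 Gy replicate 4 or 8 Gy replicate 6. On slide 1, which held 2 arrays at 8 Gy and 1 at 0 Gy, Cdt1, Mcm5 and Mcm3 differed by -1.46, -1.31 and -1.21. Below 0 there were 21 of 28 members and 45.2% of all genes. The 0 Gy array of slide 1 was replicate 1, without which none of the 3 passed. Its 75th percentile was 423.5 against 200.3 and 231.8 for the 8 Gy arrays, and its mean B cell level, 0.80, was the highest of all arrays. On slides 2 and 5, which held 2 Gy and 0 Gy arrays, the 3 genes differed by -0.72 to -0.47. Below 0 on these slides were 24 and 22 of 28 members, beside 47.0% and 46.5% of all genes. Slide 4 set 2 Gy replicate 3 against 0 Gy replicate 5, both arrays that stood apart, and 24 of 28 members were below 0 there, with all 18 T cell and all 15 neutrophil markers and a median of -0.41 over all genes, so nothing is read from it.

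None of the 5 members in the group of polymerases, primase, clamp and clamp loader passed. Pola1, the catalytic subunit of polymerase alpha, which with primase starts every new strand, had levels of -1.64 to -0.62 (median -1.20) in 0 Gy mice, -1.26, -1.08, -1.83, -2.33 and -1.94 in the 2 Gy mice, and -2.32 to -1.24 (median -1.54) in 8 Gy mice. Its log2 fold change at 8 Gy was -0.64 ± 0.27 (adjusted p = 0.110), and -0.06 under normexp. Pole, the leading-strand polymerase, had -0.40 ± 0.28 and the clamp loader subunit Rfc4 -0.29 ± 0.27. Prim1, the primase, had -0.20 ± 0.19. Pcna, the sliding clamp, had -0.16 ± 0.33 with a 95% interval from -0.85 to 0.53. All 5 genes of this group were below 0 at 8 Gy and at 2 Gy, and none passed.

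The pair of enzymes that finish lagging-strand fragments went opposite ways in sign. Fen1, the flap nuclease, had levels of -1.05 to 0.37 (median -0.53) in 8 Gy mice and -0.21 to 0.55 (median 0.30) in 0 Gy mice, and a log2 fold change of -0.61 ± 0.28 (adjusted p = 0.144). Lig1, the ligase that seals the nick, had levels of 7.37 to 9.11 (median 8.35) in 0 Gy mice. It had 9.16, 9.26, 8.29, 9.83 and 9.78 at 2 Gy, and 8.35 to 9.85 (median 9.05) in 8 Gy mice. All 6 mice at 8 Gy lay above the 0 Gy median, and the groups overlapped. Its log2 fold change was 1.02 ± 0.34 at 8 Gy (adjusted p = 0.0557) and 1.07 ± 0.34 at 2 Gy (adjusted p = 0.135). Without the array labelled 0 Gy replicate 5, where Lig1 stood at 9.04, it rose by 1.24 at 8 Gy (adjusted p = 0.0159), as the single member among 15.3% of all genes called higher beside 7.29% called lower, and by 1.26 at 2 Gy (adjusted p = 0.0321). With quantile normalization, which ranks all probes of an array, its value at 8 Gy was 0.38 (adjusted p = 0.261), and with the authors' deposited values 0.36 (adjusted p = 0.266). With normexp it was 0.39 and with brightness as a covariate 0.33. Within slides it was 1.08 between 8 Gy and 0 Gy, and 1.60, 0.67 and -0.75 between 2 Gy and 0 Gy, the last against 0 Gy replicate 5. The Lig1 probe was bright, with a mean level of 8.81 over the 18 arrays, and was flagged as saturated on 0 of them. Its highest 2 Gy level, 9.83, was on 2 Gy replicate 4, the dimmest array, with a 75th percentile of 46.4. How far array brightness makes up the Lig1 values was not tested beyond these settings.

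Genes that supply nucleotides were split in sign. Tyms, thymidylate synthase, had levels of 0.66 to 1.79 (median 0.96) in 8 Gy mice and 0.22 to 1.35 (median 0.65) in 0 Gy mice, and a log2 fold change of 0.55 ± 0.21 (adjusted p = 0.0854). Its second probe had 0.41. Rrm2, the small and regulated subunit of ribonucleotide reductase, had 0.75 ± 0.39 (adjusted p = 0.182). Rrm1, the large subunit of the same enzyme, had -0.24 ± 0.22 and Tk1, thymidine kinase, -0.44 ± 0.35. None of the 4 passed at either dose.

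The regulators and the chromatin factors did not pass. Ccne1, for cyclin E1, had levels of -0.36 to 1.36 (median 0.60) in 8 Gy mice and 0.59 to 1.56 (median 1.00) in 0 Gy mice, and a log2 fold change of -0.34 ± 0.25 (adjusted p = 0.365). E2f1, the transcription factor, had -0.23 ± 0.22 with the probe used and 0.69 with its other probe past the filter, so its direction is unsettled. Chaf1b, a subunit of the complex that places histones behind the fork, had levels of -0.93 to -0.07 (median -0.32) in 8 Gy mice and -0.71 to 0.90 (median 0.27) in 0 Gy mice, and a log2 fold change of -0.39 ± 0.22 (adjusted p = 0.239). Slbp, which binds histone messenger RNA, had -0.06 ± 0.24, and Uhrf1, which keeps DNA methylation through replication, had 0.07 ± 0.31. Among probes that did not pass the filter, those of Ccne1, Dtl, Mcm4, Pole and Rrm1 had the opposite sign or a larger value than the probe used, at signals near background.

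**Figure D3:**
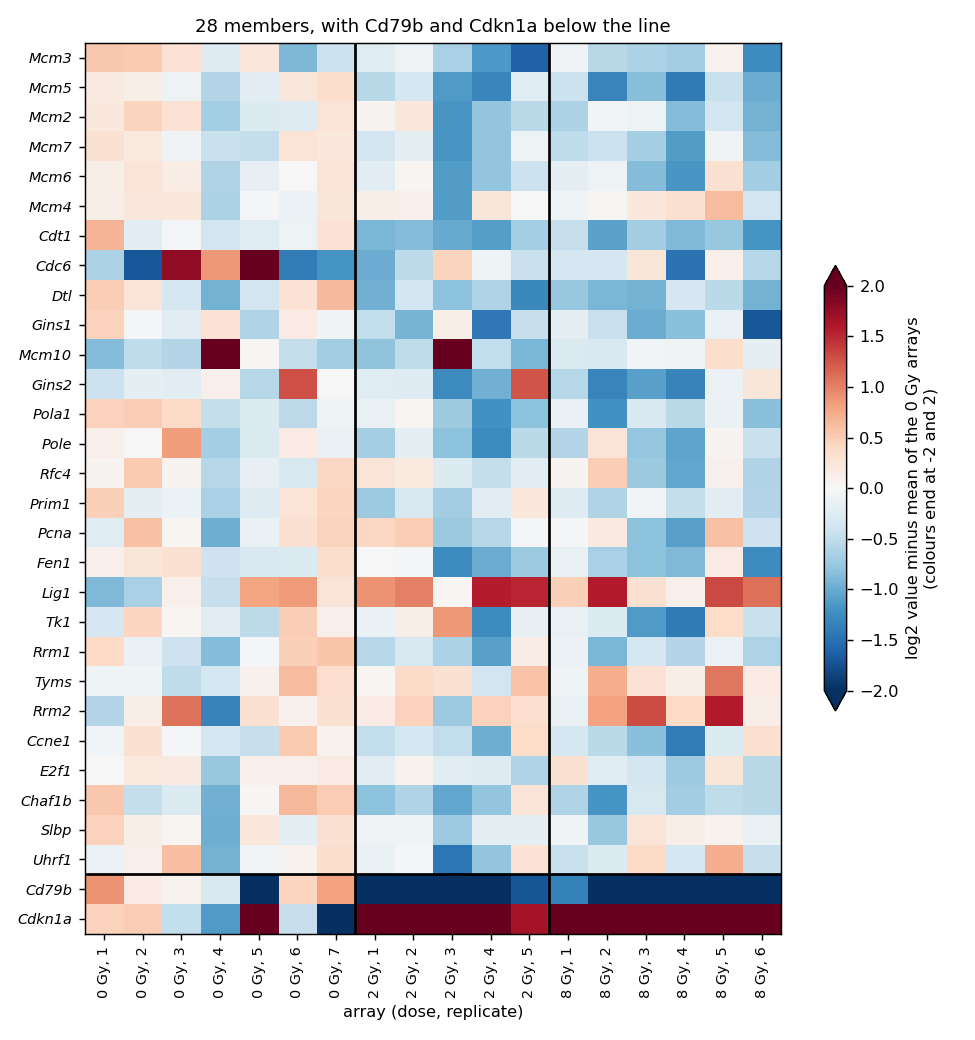
Log2 level of each member (rows, by role) on each array (columns, by dose and replicate) minus its mean over the 0 Gy arrays, with Cd79b and Cdkn1a in the bottom rows; colours end at -2 and 2. Cdt1 is below its 0 Gy mean on all 11 arrays of irradiated mice, and Mcm10 stands out on the arrays labelled 0 Gy replicate 4 and 2 Gy replicate 3.

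At 2 Gy the members lay below 0 about as far as at 8 Gy, and none passed. Their median log2 fold change was -0.40 and 24 of 28 were below 0, against a median of 0.06 over all genes. Of all genes tested 0.0587% passed at 2 Gy, 0.0294% in each direction. An unadjusted p under 0.05 was reached by 10 members and by 20.4% of all genes. Cdt1 had -0.89, Mcm3 -0.83 and Lig1 1.07. Dtl and Cdc6, whose probes were detected in 0 of the 2 Gy mice, are not ranked, though both are counted among the 24. Without the array labelled 0 Gy replicate 5, Cdt1 fell by 0.93 (adjusted p = 0.0172) and Lig1 rose, beside 2.94% of all genes called lower and 4.16% called higher. The 2 Gy and 8 Gy comparisons share the 0 Gy arrays.

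Between 8 Gy and 2 Gy no member passed in limma, and 0% of all genes tested did. The median log2 fold change of the members was 0.01, with 13 of 28 below 0. An unadjusted p under 0.05 was reached by 0 members and 3.11% of all genes. Cdt1 had 0.11 ± 0.20 with a 95% interval from -0.32 to 0.54, Mcm5 -0.09 ± 0.24 (-0.60 to 0.41) and Mcm3 0.03 ± 0.26 (-0.53 to 0.58). On slide 7, which held 3 arrays at 8 Gy and 1 at 2 Gy, the members' median difference was 0.52 with 6 of 28 below 0. The 2 Gy array there was replicate 4, the dimmest of all arrays, with a 75th percentile of 46.4. Its mean levels of the members, -0.63, and of the B cell markers, -3.60, were the lowest at 2 Gy. On this slide the B cell markers had a median difference of 1.42, and all genes -0.06 with 54.7% below 0. The members' difference there rests on this single 2 Gy array, and its cause was not tested.

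Other genes of the same pathway, from a list of 67, also lay mostly below 0. Of 63 measured, 7 fell and 2 rose at 8 Gy and 54 did not pass, beside 4.38% of all genes called lower and 7.57% called higher, with 44 below 0 and a median of -0.25. Without the array labelled 0 Gy replicate 5, 11 fell and 4 rose, beside 7.29% and 15.3% of all genes, and without 0 Gy replicate 4 and 2 Gy replicate 3, 14 fell and 0 rose, beside 6.62% and 6.91%. The 2 that rose, named after their values were seen, were E2f2, an E2F factor, by 1.04 ± 0.33 (adjusted p = 0.0479), and Tfdp2, which pairs with E2F factors to bind DNA, by 1.06 ± 0.33 (adjusted p = 0.0469). Pold1, the catalytic subunit of the lagging-strand polymerase delta, fell by 1.33 ± 0.28 (adjusted p = 0.0134), and Rfc1, the large subunit of the clamp loader, fell by 1.02 ± 0.23 (adjusted p = 0.0166). Pold1 levels were 0.87 to 2.16 in 8 Gy mice and 1.98 to 3.57 in 0 Gy mice. Ung, which removes uracil from DNA, fell by 1.40 ± 0.35 (adjusted p = 0.0250), and Rpa1, of the complex that covers single-stranded DNA, by 0.72 ± 0.19 (adjusted p = 0.0325). At 2 Gy, 0 of these 63 genes passed, beside 0.0587% of all genes. An unadjusted p under 0.05 was reached by 16 of them and by 20.4% of all genes, and their median was -0.21.

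Genes of the next cell cycle steps had log2 fold changes mostly above 0. Of 22 measured genes of G2 and mitosis 0 passed at 8 Gy, beside 12% of all genes. An unadjusted p under 0.05 was reached by 3, against 33.1% of all genes. Below 0 were 6 of the 22, and their median was 0.30, against 0.08 over all genes. Without the array labelled 0 Gy replicate 5, 1 of the 22 rose, beside 15.3% of all genes called higher. In that fit 4 of the 22 were below 0 and their median was 0.50. Without 0 Gy replicate 4 and 2 Gy replicate 3 the median was 0.12, with 8 below 0. In that fit 0 passed, beside 6.91% of all genes called higher and 6.62% called lower. Mki67, a marker of cycling cells, had levels of 2.73 to 4.74 (median 3.71) in 8 Gy mice and 2.29 to 4.37 (median 2.75) in 0 Gy mice, a log2 fold change of 0.68 ± 0.38 (adjusted p = 0.226). Top2a, the topoisomerase of dividing cells, had 0.47 ± 0.34 (adjusted p = 0.353). Ube2c, for a ubiquitin-conjugating enzyme of mitotic exit, had 1.04 ± 0.34 (adjusted p = 0.0529), Nusap1, for a spindle protein, 0.95 ± 0.36 (0.0801), Hmmr, for a hyaluronan receptor that acts on spindles, 1.12 ± 0.50 (0.128) and Ccnb2, for cyclin B2, 0.66 ± 0.35 (0.194). The difference between this list and the replication genes was not tested.

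The p53 targets and Cd79b are the measures against which the members were set. Of 19 measured p53 targets 14 rose at 8 Gy, beside 7.57% of all genes called higher, with a median of 1.79. Ccng1, for cyclin G1, rose by 2.19 ± 0.33 (adjusted p = 0.00856), Aen, for a nuclease, by 1.81 ± 0.29 (0.00868), and Polk, for a polymerase that passes DNA lesions, by 1.79 ± 0.30 (0.00868). Cdkn1a had levels of -4.08 to 1.28 (median -2.43) in 0 Gy mice, 1.47, 0.41, 1.01, 1.62 and -0.30 in the 2 Gy mice, and 1.20 to 2.67 (median 1.96) in 8 Gy mice. The 0 Gy value of 1.28 was that of replicate 5, and the next highest was -1.46. Its probe was detected in 6 of the 7 mice at 0 Gy. Cd79b, which passes on the signal of the B cell antigen receptor, had levels of 4.33 to 7.31 (median 6.57) in 0 Gy mice, 3.75, 4.39, 3.77, 1.77 and 4.70 in the 2 Gy mice, and 1.65 to 5.06 (median 2.03) in 8 Gy mice. It fell by 3.58 ± 0.61 at 8 Gy (adjusted p = 0.00868), while Cdkn1a rose by 3.41 ± 0.56 (adjusted p = 0.00868).

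Since the 0 Gy arrays other than replicate 5 lay apart from all irradiated ones in Cd79b and in Cdkn1a, no correlation over all arrays was computed, and the members were set against each gene within a dose. The first test added the level of Cd79b to the model with dose and kit, for all genes. The slope on Cd79b passed for 0 of 28 members, and for 2.61% of all genes. Of 19 other B cell markers 13 had a called slope, with a median of 0.95 on the log2 scale per unit of Cd79b. The members' median slope was 0.12 with 20 of 28 above 0, and their median SE was 0.10. Gins1 (0.28), Pola1 (0.22), Mcm3 (0.20) and Lig1 (-0.27) had an unadjusted p under 0.05, 4 of 28 members against 20.2% of all genes. Cdt1 had a slope of 0.15 ± 0.07 (unadjusted p = 0.0506, adjusted p = 0.249) and Mcm5 0.17 ± 0.08 (adjusted p = 0.275).

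With Cd79b in the model, the 8 Gy term of Cdt1 was -0.26 ± 0.30, of Mcm5 -0.17 ± 0.37 and of Mcm3 -0.08 ± 0.39, where the model without it gave -0.79 ± 0.19, -0.77 ± 0.23 and -0.80 ± 0.25. The 28 members had a median 8 Gy term of -0.02 with 13 above 0, which was -0.24 with 8 above 0 with the slide as a fixed block and 0.15 with 16 above 0 without 8 Gy replicate 1. No gene of 13620 passed for the 8 Gy term in this limma model, with 122 (0.896%) at an unadjusted p under 0.05, so the parts of dose and Cd79b cannot be told apart in these arrays. The terms of these 3 genes were nearer 0 and had larger errors than without Cd79b, while those of Cdc6 (-1.90), Mcm10 (-0.63), Pcna (0.33), Rfc4 (0.37) and Slbp (-0.09) were further from 0.

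The same model with Cdkn1a in place of Cd79b gave 0 called slopes among 28 members, with 0 at an unadjusted p under 0.05. Of all 13620 genes 0 had a called slope in limma and 1143 (8.39%) an unadjusted p under 0.05. The members' median slope was -0.01, with 11 of 28 above 0. Cdt1 had -0.01 ± 0.09, Mcm5 -0.01 ± 0.10 and Mcm3 -0.00 ± 0.11 per unit of Cdkn1a. With Cdkn1a in the model their 8 Gy terms were -0.76 ± 0.35, -0.75 ± 0.42 and -0.80 ± 0.46, with adjusted p of 0.989 each, and 0 genes passed while 452 (3.32%) had an unadjusted p under 0.05. The sizes for these 3 genes stayed close to those without Cdkn1a, and their errors were larger. Over the 28 members the median 8 Gy term was -0.31 with 7 above 0. It was -0.15 with 8 above 0 without 0 Gy replicate 4, and -0.51 with 7 above 0 without 0 Gy replicate 5. As 0 genes passed for the 8 Gy term, the parts of dose and Cdkn1a cannot be told apart in these arrays either.

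The second test correlated Cdt1, Mcm5 and Mcm3 with each gene among the 7 mice at 0 Gy and the 6 at 8 Gy, 12 relations in all, with exact 2-sided permutation p adjusted over the 12. At 0 Gy, Cdt1 and Cd79b had r = 0.63 (exact p = 0.0321, adjusted 0.386) and rho = 0.86 (exact p = 0.0238, adjusted 0.143). Without replicates 1 and 5, the arrays farthest from the median of Cd79b, r was 0.90. Mcm5 and Cd79b had r = 0.61 (exact p = 0.243, adjusted 0.825) and rho = 0.86 (exact p = 0.0238, adjusted 0.143), and r = 0.93 without these 2 arrays. Mcm3 and Cd79b had r = -0.15 (exact p = 0.858, adjusted 0.875), rho = 0.11 (exact p = 0.840, adjusted 1.00) and r = -0.38 without them. None passed after adjustment. Without replicate 5 alone, r with Cd79b was 0.90 for Cdt1 (exact p = 0.0111), 0.87 for Mcm5 (exact p = 0.0222) and 0.02 for Mcm3 (exact p = 0.950), outside the 12.

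At 8 Gy, r with Cd79b was 0.58 for Cdt1 (exact p = 0.275, adjusted 0.825), 0.35 for Mcm5 (exact p = 0.628, adjusted 0.857) and 0.44 for Mcm3 (exact p = 0.456, adjusted 0.857), with rho from -0.03 to 0.14 (exact p from 0.803 to 1.00, adjusted 1.00). Without replicates 1 and 2, r was -0.27, -0.79 and -0.19, so the positive values rest on those 2 arrays, of which replicate 1 had a Cd79b level of 5.06 while the other 5 were at 2.66 or below. With Cdkn1a, r at 0 Gy was -0.19 for Cdt1, -0.20 for Mcm5 and 0.49 for Mcm3, and at 8 Gy 0.46, -0.07 and 0.19, with exact p from 0.236 to 0.875 (adjusted p of 0.825 or more). Their rho ran from -0.25 to 0.50 (exact p from 0.267 to 0.803, adjusted 1.00). Without the 2 arrays farthest in Cdkn1a, r was 0.60, 0.76 and 0.66 at 0 Gy and 0.39, -0.40 and 0.96 at 8 Gy. These rest on 5 arrays at 0 Gy (replicates 5 and 7 left out) and 4 at 8 Gy (replicates 1 and 5 left out), and no p was computed for them.

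**Figure D4:**
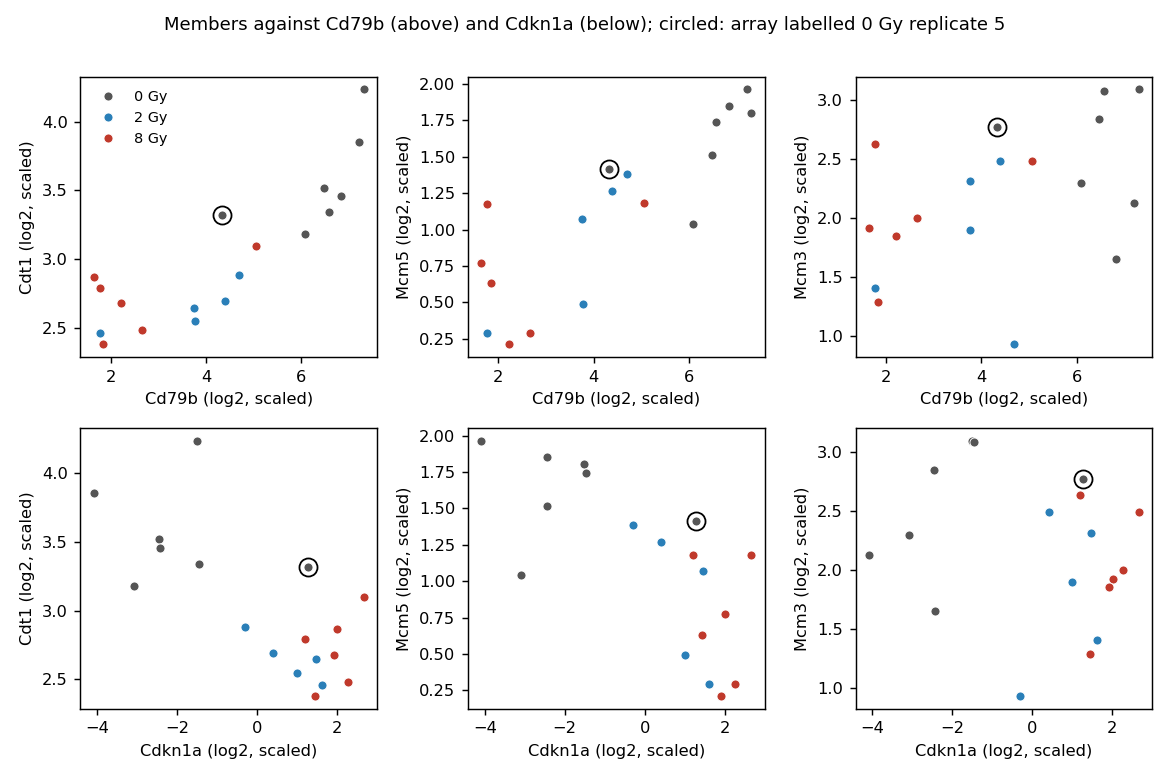
Levels of Cdt1, Mcm5 and Mcm3 (y axes) against Cd79b (upper row) and Cdkn1a (lower row), 1 point per mouse, all in log2 signal minus the 75th percentile of the array, coloured by dose. The 2 Gy and 8 Gy points overlap, and the circled array labelled 0 Gy replicate 5, at a Cd79b level of 4.33 and a Cdkn1a level of 1.28, lies among them along the x axes.

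On the array labelled 0 Gy replicate 5 the Cd79b level of 4.33 and the Cdkn1a level of 1.28 lay within the ranges of the irradiated mice, and its Cdt1 level of 3.32 lay above all 11 of them. Its Mcm5 level of 1.41 and Mcm3 level of 2.77 were also above all 11, but the 3 genes were called with this array counted as 0 Gy. Over all 28 members its mean level relative to the 0 Gy mean was -0.05, against -0.40 to 0.15 on the other 0 Gy arrays. In irradiated mice the means of the members were -0.63 to -0.10 after 2 Gy and -0.69 to 0.14 after 8 Gy, the last on 8 Gy replicate 5, so the mean of this single array lay within the ranges of both 0 Gy and 8 Gy mice.

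Over all 28 members the correlations with Cd79b at 0 Gy ran from -0.75 to 0.85 with a median of 0.36 and 23 above 0 (7 arrays), and at 8 Gy from -0.65 to 0.58 with a median of 0.04 and 15 above 0 (6 arrays). Without the 2 farthest arrays the medians were 0.61 and -0.47, over 5 and 4 arrays. Without replicate 5 alone the 0 Gy median was 0.48, and without replicates 1 and 4 as well it was 0.15 with 16 above 0. With Cdkn1a the medians were -0.08 at 0 Gy and -0.14 at 8 Gy, and 0.61 and 0.34 without the 2 farthest, again over 5 and 4 arrays. The members share the scale and the brightness of each array, so these are descriptions.

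The 3 members called at 8 Gy were all among the 10 with E2F-like letters. Those 10 had a median log2 fold change of -0.66 at 8 Gy, from -0.80 to 1.02, with 8 below 0, and the 14 without had a median of -0.27, from -0.61 to 0.75, with 12 below 0. With normexp the 8 Gy medians were -0.48 and -0.37, with 6 of the 10 and 11 of the 14 below 0, so the gap between them narrowed. Among the 10 are Cdc6 and Dtl, each detected in 4 mice at 0 Gy and 1 at 8 Gy. Both were above 0 with normexp (0.58 and 0.60), so the median of the 10 includes values near background. At 2 Gy the medians were -0.55 and -0.25. Lig1, the highest of all 28 members, also holds the letters, so the ranges overlap widely. The lines printed for Cdt1, Mcm5 and Mcm3 and for Lig1 thus belong to genes with values on both sides of 0. This is a description with no test, and a match of letters is not evidence that a factor binds.

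**Figure D5:**
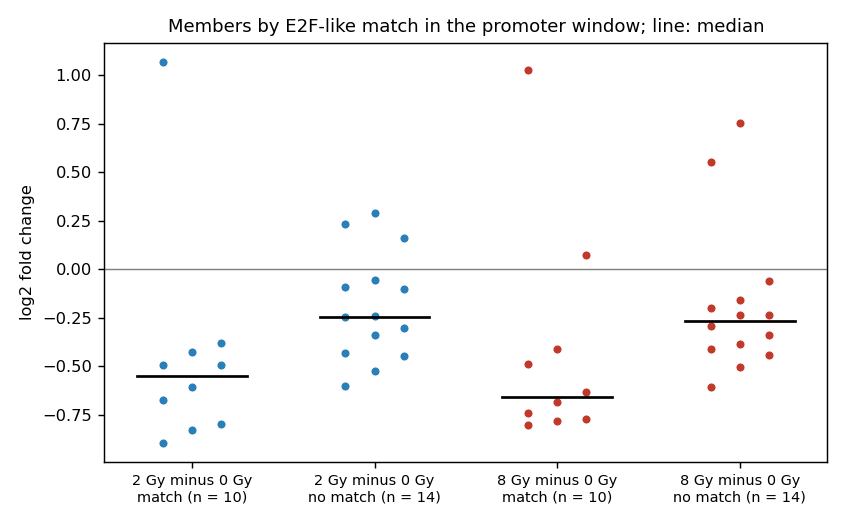
Log2 fold changes (y axis) of members with and without E2F-like letters in the promoter window, at 2 Gy (blue) and 8 Gy (red) against 0 Gy, 1 point per gene, lines at the medians. The medians are -0.66 and -0.27 at 8 Gy, and Lig1, at 1.02, is the highest point.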

How the data were processed

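Values came from 18 scanner files, whose processed signal is an intensity that the authors made with Agilent Feature Extraction 9.5.3.1, per the file headers, with background subtracted. The deposited values of the series, an intensity with a median of 20.7 in each column whose steps are not given in the sources used here, were used as an alternative. They correlated with the scanner signals with r from 0.989 to 1.00. The submitters' processing notes name limma. No column was left unmapped.

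Signals of the 41174 non-control probes (43379 spots) were taken to log2, averaged over spots, and reduced by the array's 75th percentile. In all 45 probe values marked as outliers were left out. Probes that the scanner flagged as well above background on 5 arrays or more were kept (22038), and the brightest stood for its gene. RefSeq tables named 22951 probes by accession and 9768 by symbol. The files' names were kept for 1881, and 6574 had none. Limma 3.58.1 in R 4.3.3 (statmod 1.5.0, data.table version 1.17.8) fitted dose and kit to all arrays, with Benjamini-Hochberg adjustment over 13621 genes, and was tested on simulated data. Python 3.11.15, pandas 2.3.3 and SciPy 1.17.1 gave counts and exact permutation tests.

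The members and lists were chosen with earlier results of these data known. Named genes were all members, with values for those past the threshold and the smallest p of each role, up to 4 genes of each of the other replication, G2 and mitosis and p53 lists with the smallest p, and Cd79b, Cdkn1a, Mki67 and Top2a. There were 8 slides and 7 scan days. The slide, scan day, replicate number, brightness, scaling, background, filter, probe choice, kit and each array left out were tried as alternatives. Intervals are at 95% from limma's moderated t. The mice are separate animals, and their number limits the precision of every value. Probe positions are on mm7 and promoters on GRCm38.p6, and no position was converted. Protein sequences were not used here.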

Additional observations from a re-analysis of the deposited data

Results flagged for a closer look

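In each group the highest and the lowest array were set against the others by Dixon's criterion, for the 28 members and for Cd79b, Cdkn1a, Mki67 and Top2a, in 96 groups of 5 to 7 arrays. An array was far from its group in 12 of them, where chance gives about 1 in 20.

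The array labelled 2 Gy replicate 3 stood apart in 5 genes, with Mcm10 at 4.64 (the others from -0.90 to -0.47), Mcm4 at 2.25 (3.37 to 3.60), Rrm2 at -0.66 (0.22 to 0.53), Slbp at 1.62 (2.15 to 2.27) and Mki67 at 2.42 (3.33 to 3.53). The array labelled 0 Gy replicate 4 stood apart in 3, with Mcm10 at 3.13 (-0.85 to 0.04), Mcm4 at 2.73 (3.25 to 3.60) and E2f1 at -2.69 (-1.91 to -1.74). The one labelled 0 Gy replicate 5 had Cd79b at 4.33 (6.09 to 7.31). The array 8 Gy replicate 1 had Cd79b at 5.06 (1.65 to 2.66), 8 Gy replicate 5 had Mcm10 at 0.36 (-0.29 to -0.05), and 0 Gy replicate 6, a PAXgene array, had Gins2 at -0.15 (-1.99 to -1.33). Cdt1, Mcm5, Mcm3 and Lig1 had no such array in any group.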

How the results depend on the processing

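Of 2682 values of members under the alternatives, 0 reversed, 50 lost a call, 15 gained one and 187 changed sign without a call in either. At 8 Gy against 0 Gy the 3 members called lower became 5 with normexp, 1 with the slide as a random block, and 0 with no filter, in RiboPure arrays alone, with slide or scan day as fixed blocks, with brightness as a covariate, and with the replicate block (all genes: 117 higher and 129 lower). Samples with the same replicate number did not all deviate together (correlations from -0.34 to 0.48), and the main model did not pair the mice. Correlations of single arrays cannot exclude a pairing by number. Leaving out 1 array gave 0 to 4 called lower and 0 to 2 called higher, with a median from -0.47 to -0.26. The count was 0 without 0 Gy replicate 1, 8 Gy replicate 4 or 8 Gy replicate 6, and 1 without 0 Gy replicate 2, 3, 6 or 7, 2 Gy replicate 1 or 5, or 8 Gy replicate 2, 3 or 5. One or 2 members were called higher without 0 Gy replicate 5, 2 Gy replicate 3 or 4, or 8 Gy replicate 1. At 2 Gy, quantile normalization gave 1 lower call (Cdt1), and leaving out 1 array gave 0 to 1 lower and 0 to 1 higher calls, with a median from -0.47 to -0.30. At 8 Gy against 2 Gy each count was 0, with a median from -0.08 to 0.13. Called slopes stayed at 0. Without 0 Gy replicate 5 the correlation of Mcm5 with Cd79b at 0 Gy was 0.87 (exact p = 0.0222). Over all genes, 1031 rose and 597 fell at 8 Gy, 521 and 622 with quantile normalization, 515 and 626 with the deposited values, 930 and 1136 with normexp, 157 and 137 in RiboPure arrays alone, and 0 of either with slide, scan day or brightness in limma. The causes were not tested. Cdc6 and Dtl lie near background, so no bound on their folds is given.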
